A study of Mus musculus with 4 samples.

Results

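The genes described here are 10 transcripts of the unfolded protein response: the regulators Atf4, Xbp1 and Ddit3, the chaperones and cochaperones Hspa5, Hsp90b1, Dnajb9 and Sdf2l1, the disulfide isomerases Pdia4 and Pdia6, and the degradation factor Herpud1. They were chosen by gene symbol, and all 10 were found among the 20194 genes listed in either deposited table. All 10 were listed at both stages and passed the filter on low counts in every comparison below. The study counted transcripts of mouse brain endothelial cells, strain C57BL/6, in 4 libraries of 1 per group: UCP2f/f;Tie2-cre embryos at embryonic day 15 (E15), wild-type embryos at E15, UCP2f/f;Tie2-cre embryos at embryonic day 18 (E18), and wild-type embryos at E18. In the UCP2f/f;Tie2-cre groups, called knockout below, Cre recombinase from the Tie2 promoter acts on a floxed Ucp2, whose product is a transporter in the inner membrane of mitochondria. That promoter is active in endothelial cells and in most blood cells, so deletion is not limited to endothelium. The labels give neither the isolation of the cells nor the number of embryos behind a library, and although the series' design text mentions triplicates, 4 libraries were analysed here.

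Proteins that enter the endoplasmic reticulum (ER) are folded there by chaperones, joined by disulfide isomerases and, where folding fails, exported for degradation. When unfolded proteins accumulate, the membrane sensors IRE1 (gene Ern1), PERK (gene Eif2ak3) and ATF6 signal to the nucleus: IRE1 splices Xbp1 mRNA, PERK slows translation while favouring that of ATF4, and ATF6 is cut to release a transcription factor. Together they raise the folding and degradation machinery, and ATF4 with CHOP, the product of Ddit3, shifts the cell towards amino acid supply or, under lasting stress, towards death. Endothelial cells secrete large amounts of basement membrane protein through this route. Counts per gene show neither the splicing of Xbp1 nor the translation of Atf4, so what follows concerns transcript amounts.

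ATF6 and XBP1 act through short elements that lie close to the start of their target genes. All 10 had a RefSeq promoter window (build GRCm38.p6) of 250 bases before and 50 bases after the annotated start. The letters of the ER stress response element, CCAAT followed by 9 bases of any kind and CCACG, were searched on both strands. They were present in the windows of Hspa5, Hsp90b1 and Pdia6, and in 39 of all 32851 windows (0.119%). The letters of its second form, ATTGG followed by 1 base of any kind and CCACG, were present in Herpud1 and in 12 of all windows (0.0365%). Both forms contain the letters of a CCAAT box, which 37.4% of all windows hold when it is counted alone, and CCACG, which 32.8% hold. The 250 bases before the start are shown for these 4 genes, read 5′ to 3′ on the gene's strand, because they hold the letters of the element, a match of letters and not a test of its use. Capitals mark the element.
Hspa5, chr2:34771840-34772089, plus strand: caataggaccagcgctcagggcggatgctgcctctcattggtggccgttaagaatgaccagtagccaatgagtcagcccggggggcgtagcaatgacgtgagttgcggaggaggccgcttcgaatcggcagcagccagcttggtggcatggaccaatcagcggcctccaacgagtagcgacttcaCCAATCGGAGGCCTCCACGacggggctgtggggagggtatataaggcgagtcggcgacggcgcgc
Hsp90b1, chr10:86705445-86705694, minus strand: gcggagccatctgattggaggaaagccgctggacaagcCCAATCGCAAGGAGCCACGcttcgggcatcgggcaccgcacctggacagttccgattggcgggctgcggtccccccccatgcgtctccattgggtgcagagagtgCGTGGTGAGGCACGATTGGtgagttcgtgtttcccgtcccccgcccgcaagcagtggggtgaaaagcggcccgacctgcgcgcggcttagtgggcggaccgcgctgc
Pdia6, chr12:17266339-17266588, plus strand: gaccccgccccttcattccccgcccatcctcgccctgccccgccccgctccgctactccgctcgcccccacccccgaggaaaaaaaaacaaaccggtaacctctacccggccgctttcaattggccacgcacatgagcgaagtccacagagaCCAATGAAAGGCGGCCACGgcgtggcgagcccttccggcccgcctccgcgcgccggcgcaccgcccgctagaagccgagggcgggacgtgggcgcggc
Herpud1, chr8:94386179-94386428, plus strand: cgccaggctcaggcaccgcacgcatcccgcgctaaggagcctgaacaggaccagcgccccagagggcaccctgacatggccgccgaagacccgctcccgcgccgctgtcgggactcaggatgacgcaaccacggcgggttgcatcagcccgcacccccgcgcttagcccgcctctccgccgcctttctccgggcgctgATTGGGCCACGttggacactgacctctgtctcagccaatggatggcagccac

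The element of Hspa5 ran from 65 to 47 bases before the start and that of Pdia6 from 98 to 80. Hsp90b1 held the letters in both orientations, from 212 to 194 and, on the opposite strand, from 107 to 89. In Herpud1 the second form ran from 52 to 42. Herpud1 also held the letters of an amino acid response element, through which ATF4 acts (TGATGCAA, on the opposite strand from 112 to 105), as did 294 windows in all (0.895%). The XBP1 element TGACGTGG was in 222 of all windows (0.676%) and the heat shock element in 198 (0.603%), and in 0 of the 10. The remaining windows, of Atf4, Xbp1, Ddit3, Dnajb9, Sdf2l1 and Pdia4, held neither form with these exact letters, which says nothing about other spellings or positions. The deposited annotation adds what the proteins share. Of the 10 genes, 6 carry the term ER lumen, against 92 of all genes listed, and 6 the term response to ER stress, against 76.

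Library totals lay between 15542930 and 21992660 reads in genes. Reads of Ucp2, the targeted gene, were fewer in each knockout library but not absent, with 2666 reads in the knockout and 4285 in the wild-type library at E15, and 3296 and 6696 at E18. The endothelial identity of the libraries was borne out by all 12 endothelial markers, none of which was at 0 and which summed to between 17856 and 21009 CPM (a gene's reads as parts of its library's total, scaled to 1000000). Markers of other cells were present at lower levels, the largest being those of pericytes and smooth muscle, at 4887 CPM in the knockout and 7323 CPM in the wild-type library at E15, and at 11642 and 9325 CPM at E18. At E18 the wild-type library held the Y-linked Ddx3y (5826 reads) and no Xist, while the knockout library held no Ddx3y and 547 reads of Xist, so genotype and sex cannot be told apart at that stage. In RNA from a bulk preparation, fewer cells of a type and less RNA per cell cannot be told apart either.

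The genes spanned a wide range of transcript levels, in nearly the same order in every library. Per kilobase of exon, Hspa5 stood first in all 4 libraries, at 244 CPM per kilobase in the knockout and 225 in the wild-type library at E15, and at 229 and 188 at E18. It encodes BiP, the most abundant ER chaperone and the one whose binding keeps the sensors quiet. Of 16150 genes ranked by this level, it stood among the top 0.836%, 0.898%, 0.954% and 1.16% in the same order of libraries. Ddit3 stood last in all 4, at 10.2 and 7.62 CPM per kilobase at E15 and 8.87 and 6.70 at E18. Between them, Pdia6, Hsp90b1, Atf4, Xbp1 and Pdia4 took places 2 to 6, and Sdf2l1, Dnajb9 and Herpud1 places 7 to 9. Within those blocks neighbours changed places between libraries. Atf4 was in place 2 in both wild-type libraries but in places 5 and 6 in the knockout libraries at E15 and E18.

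**Figure D1:**
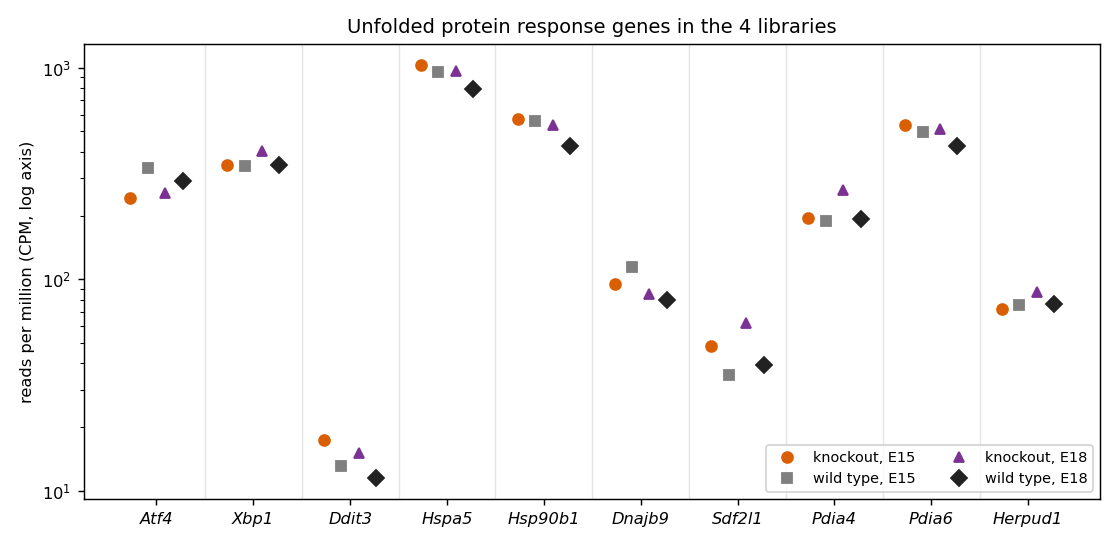
Level of each gene in CPM (log axis) in the knockout and the wild-type library at E15 and at E18, 1 library per point. The wild-type library at E18 is the lowest for Hspa5, Hsp90b1, Pdia6, Dnajb9 and Ddit3, and Atf4 is the gene whose knockout value is the lower one at E15 and at E18.

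Summed over the 10 genes, the level was 3156 CPM in the knockout and 3114 CPM in the wild-type library at E15, and 3194 CPM in the knockout and 2687 CPM in the wild-type library at E18. On library totals the sum was thus nearly the same in 3 of the 4 libraries and lower in the wild-type library at E18. Levels compared across stages, here and for single genes below, are on that scaling. TMM factors, another scaling, were 1.04 in both libraries at E15. At E18 they were 0.961 in the knockout and 0.959 in the wild-type library, which raises both E18 libraries relative to those at E15. Hspa5, Hsp90b1 and Pdia6 made up between 61.4% and 67.8% of it.

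The question put to each pair of libraries was whether the deletion of Ucp2 by Tie2-cre went with a different amount of these transcripts. At E15 the genes had no common direction, whereas 9 of 10 were slightly higher in the knockout library at E18. Ratios are given as the log2 of CPM plus a pseudocount of 1 CPM, knockout over wild type. Their 95% intervals are exact Clopper-Pearson intervals that cover counting error only. They are intervals of the ratio without the pseudocount. Single comparisons have neither replicates nor p-values, since each group is 1 library. At E15 the median over the 10 genes was 0.04, against -0.01 over all 12633 genes that passed the filter, and 7 of 10 lay above 0, against 49.4% of all genes. At E18 the median was 0.27, against 0.00 over all 12349 genes, and 9 of 10 lay above 0, against 50.3%. Past 2-fold lay 0 of the 10 at E15, where 6.87% of all genes did, and 0 at E18, where 6.8% did. Past 1.5-fold lay 0 at E15, against 18.8%, and 1 at E18, Sdf2l1 on the higher side, against 8.59% on that side.

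**Figure D2:**
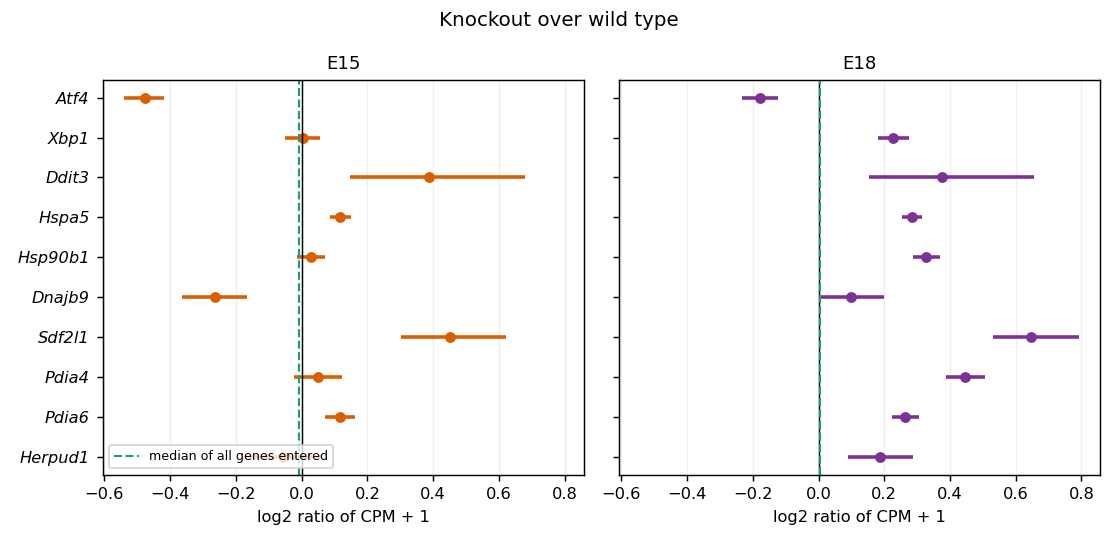
Knockout over wild type at E15 and at E18 for each gene, as the log2 ratio of CPM plus 1 (points) with 95% intervals of the ratio from counting error (bars). The dashed line is the median of all genes that passed the filter. At E15 the points lie between -0.48 and 0.45, and at E18 all but Atf4 lie above 0, up to 0.65.

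Intervals that exclude 0 are common at this depth. At E15 the interval lay above 0 for 4 of the 10 genes and below 0 for 2, against 28.9% and 30.5% of all genes. At E18 it lay above 0 for 9 and below 0 for 1, against 32.5% and 31.9%. Because most of these genes are abundant, the same shares were also taken over genes that averaged 50 CPM or more, a limit chosen after the values were seen. They came to 32.1% and 36.0% at E15 and 40.5% and 33.4% at E18. Folds past 2 were rarer in these abundant genes than in all genes. Of 4044 at E15, 54 were past 2-fold higher and 10 lower, and of 3838 at E18, 7 and 8. Past 1.5-fold on the higher side at E18 lay 64 of them.

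Among the regulators, Atf4 and Ddit3 ran in opposite directions. Atf4 encodes the transcription factor whose translation PERK favours. It had 241 CPM (3942 reads) in the knockout and 337 CPM (5231 reads) in the wild-type library at E15, and 256 CPM (5641 reads) in the knockout and 290 CPM (5536 reads) in the wild-type library at E18. Both knockout libraries lay below both wild-type libraries. The log2 ratio was -0.48 at E15 (interval -0.54 to -0.42), lower than that of all but 12.6% of genes, and -0.18 at E18 (interval -0.23 to -0.12). Of genes averaging 50 CPM or more, 3.44% had a lower ratio at E15 and 21.9% at E18.

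Ddit3 encodes CHOP, a transcription factor that ATF4 induces and that promotes cell death in lasting ER stress. It was the scarcest of the group, with 17.4 CPM (284 reads) in the knockout and 13.1 CPM (203 reads) in the wild-type library at E15. At E18 it had 15.2 CPM (334 reads) in the knockout and 11.5 CPM (219 reads) in the wild-type library. Here both knockout libraries lay above both wild-type libraries, with log2 ratios of 0.39 (interval 0.15 to 0.68) and 0.38 (interval 0.15 to 0.66) at the 2 stages. Exons of Ddit3 overlap those of Mars on the opposite strand, and whether counting used strand is not stated, so reads of the 2 genes may not be fully separated. Mars had 1135 and 1287 reads in the knockout and wild-type libraries at E15 and 1562 and 1512 at E18.

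Xbp1, the target of IRE1 splicing, had 345 CPM in the knockout and 345 CPM in the wild-type library at E15, from 5638 and 5355 reads. At E18 it had 406 CPM (8922 reads) in the knockout and 346 CPM (6606 reads) in the wild-type library. On library totals, the 2 libraries at E15 and the wild-type library at E18 were level, and the knockout library at E18 stood above them. Its log2 ratio was 0.00 at E15 (interval -0.05 to 0.06) and 0.23 at E18 (interval 0.18 to 0.27).

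Of the chaperones, Hspa5 had 1032 CPM (16858 reads) in the knockout and 951 CPM (14788 reads) in the wild-type library at E15, and 968 CPM (21278 reads) and 795 CPM (15159 reads) at E18. The wild-type library at E18 was the low one. This gave a log2 ratio of 0.12 at E15 (interval 0.09 to 0.15) and 0.28 at E18 (interval 0.25 to 0.31).

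Hsp90b1 encodes GRP94, the HSP90 of the ER, which folds integrins and Toll-like receptors. It had 573 CPM (9348 reads) in the knockout and 561 CPM (8723 reads) in the wild-type library at E15, and 538 CPM (11831 reads) and 428 CPM (8171 reads) at E18. As with Hspa5, 3 libraries were close and the wild-type library at E18 lay below them. The log2 ratio was 0.03 at E15 (interval -0.01 to 0.07) and 0.33 at E18 (interval 0.29 to 0.37).

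The cochaperones diverged from each other. Sdf2l1, a stress-induced partner of BiP and its J-domain proteins, had the highest ratio of the group at both stages. It had 48.6 CPM (793 reads) in the knockout and 35.3 CPM (548 reads) in the wild-type library at E15, and 62.2 CPM (1369 reads) and 39.4 CPM (751 reads) at E18. Both knockout libraries exceeded both wild-type libraries. The log2 ratio was 0.45 at E15 (interval 0.30 to 0.62), exceeded by 13.45% of all genes, and 0.65 at E18 (interval 0.53 to 0.79), exceeded by 7.07% of all genes. Of genes averaging 50 CPM or more, 5.49% exceeded it at E15 and 1.02% at E18. Sdf2l1 was itself below 50 CPM in both libraries at E15, so it is not among those genes there. At E18 its libraries lay on either side of that limit, which was chosen after the values were seen. Large folds were rarer in such abundant genes than in all genes, so these lower shares do not rank Sdf2l1 among genes of its own level.

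Dnajb9 encodes ERdj4, a J-domain cochaperone that recruits BiP to IRE1. It had 94.99 CPM (1551 reads) in the knockout and 114 CPM (1775 reads) in the wild-type library at E15, and 85.3 CPM (1875 reads) and 79.6 CPM (1518 reads) at E18. Both libraries at E15 lay above both at E18, and the knockout library was the lower one at E15 alone. The log2 ratio was -0.26 at E15 (interval -0.36 to -0.17) and 0.10 at E18, where the interval (0.001 to 0.20) barely excluded 0.

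The disulfide isomerases Pdia4 and Pdia6, which make and rearrange disulfide bonds, were close to level at E15. Pdia4 had 196 CPM (3195 reads) in the knockout and 189 CPM (2940 reads) in the wild-type library at E15, and 263 CPM (5777 reads) and 193 CPM (3674 reads) at E18. The knockout library at E18 stood above the others, which were level on library totals. Ratios of Pdia4 were 0.05 at E15 (interval -0.02 to 0.12) and 0.45 at E18 (interval 0.39 to 0.51), the latter exceeded by 13.1% of all genes. Of genes averaging 50 CPM or more, 4.40% exceeded it at E18. Pdia6, which also binds IRE1 and limits its activity, had 535 CPM (8740 reads) in the knockout and 494 CPM (7673 reads) in the wild-type library at E15, and 514 CPM (11295 reads) and 428 CPM (8162 reads) at E18. In this gene the wild-type library at E18 was again the lowest, with log2 ratios of 0.12 (interval 0.07 to 0.16) and 0.26 (interval 0.22 to 0.30).

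Herpud1 encodes a membrane protein that organises the complex for ER-associated degradation. It had 72.5 CPM (1184 reads) in the knockout and 75.4 CPM (1172 reads) in the wild-type library at E15, and 87.5 CPM (1925 reads) and 76.7 CPM (1464 reads) at E18. The knockout library at E18 was the highest and the other libraries were close to one another on library totals. Herpud1 thus gave a log2 ratio of -0.06 at E15 (interval -0.17 to 0.06) and 0.19 at E18 (interval 0.09 to 0.29).

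The ratio at E18 exceeded that at E15 in 9 of 10 genes, by between 0.15 and 0.40 on the log2 scale, and Ddit3 was level at -0.01. The median difference was 0.23, against -0.01 over 11784 genes that passed at both stages, of which 49.18% had a positive difference. Pdia4 had the largest difference (0.40), which 20.5% of all genes exceeded, followed by Dnajb9 (0.36). No degree of freedom is left for a test of this difference, so it is a value without a test.

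The additive test, which fits genotype and stage to all 4 libraries and treats the stages as replicates of the genotype effect, was the only one with a residual degree of freedom. By edgeR's quasi-likelihood test with Benjamini-Hochberg adjustment over 13416 genes, 0 of the 10 genes passed an adjusted p of 0.05 for genotype, where 0.0224% of all genes did. Before adjustment 1 of the 10, Sdf2l1, was below 0.05, as were 5.12% of all genes. With a filter of 5 CPM or with DESeq2 it was 2 of the 10, Atf4 being the other, against 6.96% and 4.50% of all genes. The estimate of Sdf2l1 by edgeR was 0.56 on the log2 scale (adjusted p = 0.882, and between 0.453 and 1.00 over the alternatives), with higher knockout values at both stages. DESeq2's Wald test also called 0 of the 10. Negative estimates were those of Atf4 (log2 -0.33, adjusted p = 0.986 by edgeR), with lower knockout values at both stages, and Dnajb9 (log2 -0.08, adjusted p = 0.999 by edgeR). In the authors' deposited table, 0 of the 10 genes carry the mark of significance at either stage, against 22.9% of genes at E15 and 25.4% at E18.

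Other measured features moved with the comparisons. At E15, microglial and macrophage markers (12 listed, none at 0) summed to 291 CPM in the knockout and 622 CPM in the wild-type library, beside the pericyte and smooth muscle markers given above. Fibroblast and meningeal markers (6 of 7 listed, Pdgfra at 0 in the knockout) summed to 147 and 309 CPM, those of neurons (10 listed, none at 0) to 60.9 and 122 CPM, and those of choroid plexus (5 listed, Aqp1 and Folr1 at 0 in the knockout) to 3.00 and 25.0 CPM. At E18, microglial and macrophage markers (11 of 12 listed, none at 0) summed to 149 CPM in the knockout and 83.4 CPM in the wild-type library, and 12 immediate early genes, which tissue handling also induces, to 16459 and 26342 CPM. Choroid plexus markers (4 of 5 listed, Folr1 and Ttr at 0 in the wild type) summed to 14.4 CPM in the knockout and 3.36 CPM in the wild-type library at E18. Markers of B and plasma cells, which have a large secretory apparatus, were near the same level, at 29.2 and 31.9 CPM over the 5 of 8 markers listed, with Irf4 at 0 in the knockout library. The 5 mast cell markers summed to 131 and 133 CPM at E18. Of these, Cma1, Cpa3, Mcpt4 and Tpsb2 were at 0 in the wild-type library and none in the knockout library. At E15 Cma1 and Mcpt4 were at 0 in the wild-type library alone. Erythroid markers summed to 722 CPM in the knockout and 917 CPM in the wild-type library at E18. The part of these in the ratios of the 10 genes was not tested. A separate setting, which does not address cell content or handling, centred each ratio on genes of like transcript length. With it the E18 median was 0.23 and 9 of 10 genes remained above 0. The E15 median was 0.02, with 6 of 10 above 0. Of all genes 49.99% lay above 0 at either stage.

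Across stages, on library totals, 9 of 10 genes had ratios of the same sign in both genotypes, and Atf4 did not. Those of Xbp1, Sdf2l1, Pdia4 and Herpud1 lay above 0 in both. In the wild type they were only 0.01, 0.16, 0.03 and 0.03, with intervals that included 0. Ratios of Ddit3, Hspa5, Hsp90b1, Dnajb9 and Pdia6 lay below 0 in both, with intervals for Ddit3 that included 0. In the knockout libraries 5 of 10 genes were higher at E18 and 5 lower (median 0.01, against -0.10 over 12465 genes). In the wild-type libraries 4 were higher and 6 lower (median -0.19, against -0.11 over 12515 genes). Stage and sex cannot be told apart in the wild type, where Xist had 0 reads at E18 and 2549 at E15. Above 0 lay 42.1% of all genes in the knockout and 39.1% in the wild type. Past 2-fold lay 0 of the 10 genes in either comparison, against 15.3% of all genes in the knockout and 10.7% in the wild type. Of genes averaging 50 CPM or more, 71 of 3966 were past 2-fold higher and 130 lower in the knockout. In the wild type it was 63 and 51 of 3931. With TMM factors in place of library totals, the medians of all genes became 0.01 in the knockout and 0.00 in the wild type, and those of the 10 genes 0.13 and -0.07. In the knockout 8 of 10 genes then lay above 0, against 50.8% of all genes under that scaling. Hspa5, Hsp90b1 and Pdia6 changed sign there, reaching at most 0.03, 0.03 and 0.07 under TMM or DESeq2 scaling. In the wild type they stayed below 0, so the count of 9 genes with the same sign holds on library totals and not under these scalings.

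**Figure D3:**
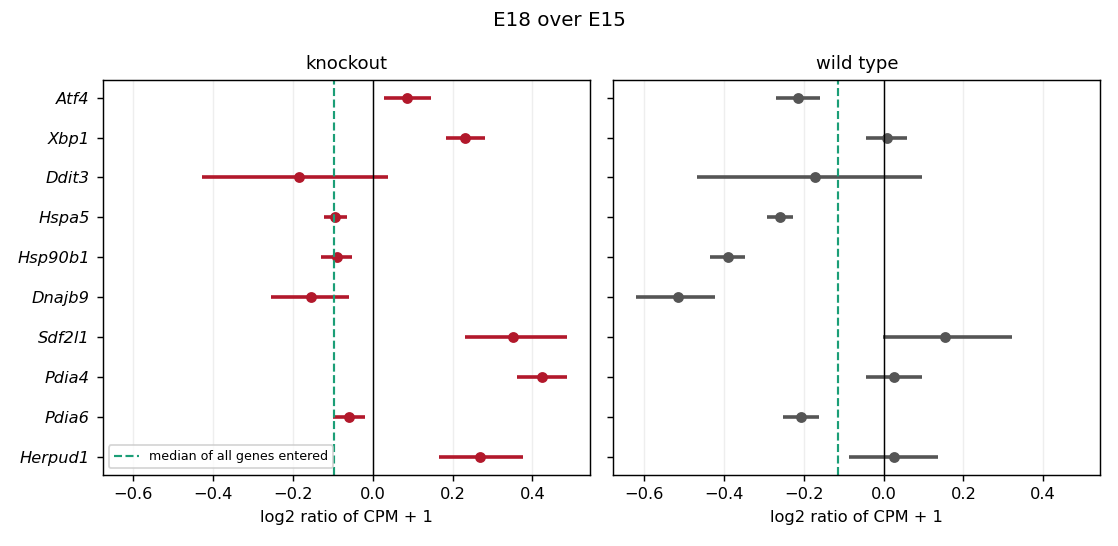
E18 over E15 for each gene in the knockout and in the wild-type libraries, as the log2 ratio of CPM plus 1 (points) with 95% intervals from counting error (bars). The dashed line, the median of all genes, lies at -0.10 and -0.11. Pdia4, Sdf2l1, Herpud1 and Xbp1 are highest in the knockout, while Hsp90b1 and Dnajb9 are lowest in the wild type.

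Counting intervals lay above 0 for 5 genes and below 0 for 4 in the knockout, against 29.0% and 43.6% of all genes, and for 0 and 5 in the wild type, against 24.1% and 43.4%. In the knockout, Pdia4 (log2 0.42), Sdf2l1 (0.35), Herpud1 (0.27) and Xbp1 (0.23) were highest, and Dnajb9 (-0.15) and Ddit3 (-0.18) lowest. In the wild type, Dnajb9 (-0.52), Hsp90b1 (-0.39), Hspa5 (-0.26), Atf4 (-0.21) and Pdia6 (-0.21) were lower at E18, and Sdf2l1 was highest (0.16, with an interval that included 0). The wild-type library at E18 enters both this comparison and that of genotype at E18, so the 2 sets of values are not independent. In edgeR's additive test of stage, 0 of the 10 genes passed, against 1.34% of all genes. Pdia4 had the lowest adjusted p of the 10 (log2 0.34, adjusted p = 0.321 by edgeR). Its wild-type ratio was 0.03, with an interval that included 0. DESeq2 also called 0 of the 10.

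The wider pathway, described by lists grouped by role, showed smaller medians than the 10 genes at E18. The counts below stand against all genes, of which 49.4% lay above 0 at E15 and 50.3% at E18. Past 2-fold were 6.87% and 6.8%. Other ER chaperones and cochaperones had a median log2 ratio of 0.11 at E15 and of 0.12 at E18, with 11 and 12 of 15 genes above 0 and 0 past 2-fold. The lectin chaperones Calr and Canx led this list in level. Calr had 519 CPM in the knockout and 461 CPM in the wild-type library at E15, and 669 and 523 CPM at E18 (log2 0.17 and 0.35). Canx gave log2 ratios of 0.09 and 0.29. Creld2, an ER stress target with isomerase activity, had 527 and 319 reads at E15 (log2 0.63), and Dnajb11, the cochaperone ERdj3, had 1224 and 699 reads at E18 (log2 0.59). Creld2 had 667 and 561 reads at E18 (log2 0.04), and Dnajb11 1018 and 682 at E15 (log2 0.50).

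For oxidative folding the medians were 0.04 (E15) and 0.03 (E18), with 8 and 10 of 14 genes above 0. At E15 Txndc11 had 940 reads in the knockout and 336 in the wild-type library (log2 1.37), Txndc5 1016 and 421 (log2 1.17), and Pdia5 1034 and 540 (log2 0.85), whereas the abundant Pdia3 and P4hb gave 0.13 and -0.01. Of these, Txndc5 was also past 1.5-fold at E18, with 732 and 413 reads (log2 0.60). ER-associated degradation had medians of 0.05 and 0.04 over 22 genes, with 14 and 15 above 0 and 0 past 2-fold. Syvn1, the ubiquitin ligase HRD1 at the centre of that pathway, had 300 and 137 reads at E15 (log2 0.98), but 511 and 432 at E18 (log2 0.04). Translocation and glycosylation had medians of 0.07 and 0.04 over 32 genes, with 0 past 2-fold.

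**Figure D4:**
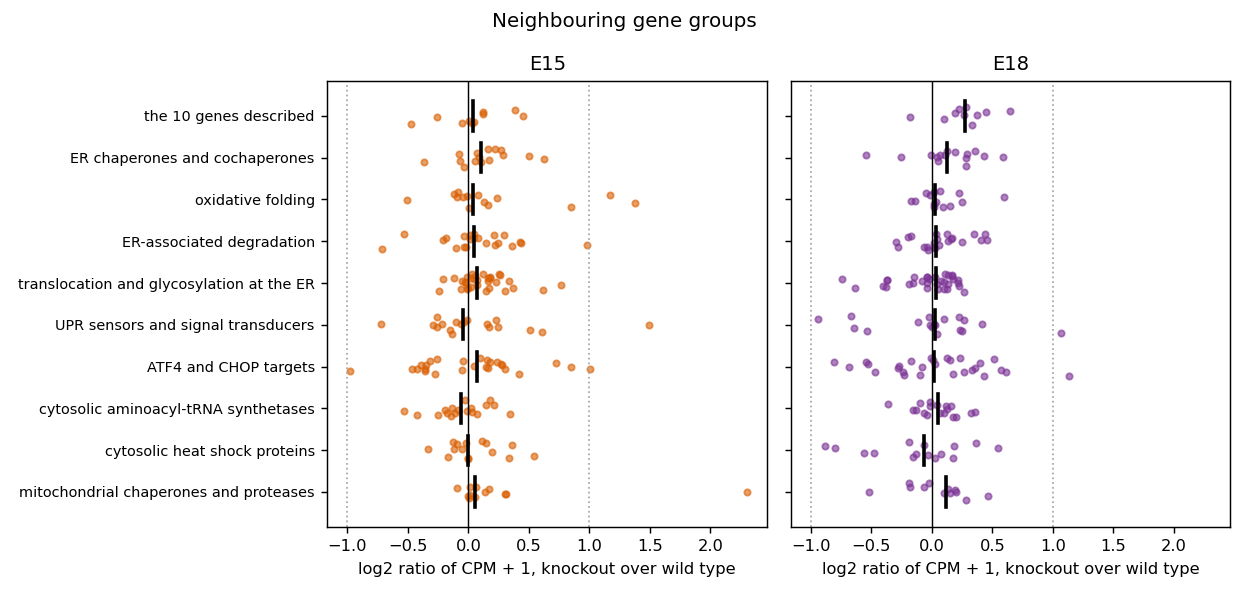
Knockout over wild type at E15 and at E18 for the 10 genes and for 9 lists of neighbouring function, as the log2 ratio of CPM plus 1 (points, 1 per gene) with the median of each list (black bar) and dotted lines at 2-fold. At E18 the median of the 10 genes lies at 0.27 and those of the lists between -0.07 and 0.12.

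The list of sensors and signal transducers gave medians of -0.05 at E15 and 0.02 at E18 over 18 genes, with 1 past 2-fold at each stage. Eif2ak3, which encodes PERK, had 227 reads in the knockout and 67 in the wild-type library at E15 (log2 1.49, interval 1.29 to 2.10), and 48 and 76 reads at E18. Its level in the knockout library at E15 stood above the other libraries. Ern1, which encodes IRE1, had 164 and 190 reads at E15 and 245 and 425 at E18 (log2 -0.94 at E18). Atf6, given here because it completes the sensors named above and chosen after its values were seen, had 1052 and 1074 reads at E15 (log2 -0.10) and 1672 and 1085 at E18 (log2 0.41). The 3 sensors thus had no common direction at either stage. Wfs1, an ER membrane protein that restrains ATF6, had 465 and 182 reads at E18 (log2 1.07). At E15 it was the lower one in the knockout library, with 203 and 235 reads (12.4 and 15.1 CPM).

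Targets of ATF4 and CHOP did not follow Atf4 as a list, with medians of 0.07 over 26 genes at E15 and 0.02 over 28 at E18, and 14 and 15 of them above 0. Past 2-fold lay 1 at each stage, Stc2 at E15 (166 and 71 reads, log2 1.00) and Mthfd2, an enzyme of mitochondrial folate metabolism, at E18 (299 and 108 reads, log2 1.13). The amino acid transporters Slc3a2 and Slc7a1 were the most abundant, with log2 ratios of 0.27 and 0.28 at E15 and of 0.17 and 0.23 at E18. Phgdh, which starts serine synthesis, had 310 and 598 reads at E15 (log2 -0.98), and Bbc3, which encodes the death factor PUMA, 225 and 112 (log2 0.85). Neither repeated at E18, where Phgdh had 687 and 493 reads (log2 0.26) and Bbc3 94 and 94 (log2 -0.17). At E18 Atf3, also an immediate early gene, had 8073 and 11295 reads (log2 -0.69) and Cebpg 418 and 648 (log2 -0.81). At E15 Atf3 had 4672 and 5959 reads and Cebpg 500 and 460. Cytosolic aminoacyl-tRNA synthetases, many of them ATF4 targets, had medians of -0.06 and 0.05 over 18 genes. Past 1.5-fold in either direction lay 0 of them, against 18.8% of all genes at E15. At E18, 1061 of all 12349 genes were past it on the higher and 1326 on the lower side. Such folds were rarer in genes averaging 50 CPM or more. There 133 were higher and 80 lower of 4044 at E15, and 64 and 83 of 3838 at E18.

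Folding systems outside the ER were also set beside the group. Over 15 cytosolic heat shock proteins the median was -0.00 at E15 and -0.07 at E18, with the abundant Hspa8 at -0.00 and -0.07. The stress-inducible Hspa1a had 17882 reads in the knockout and 11692 in the wild-type library at E15 (log2 0.54), and 1985 and 3017 at E18 (log2 -0.80). It was thus the higher one in the knockout at E15 and the lower one at E18. Hspa1b gave 0.36 and -0.88, the E18 value from 15 and 40 reads, and as near-identical copies the pair may not be fully separated. Mitochondrial chaperones and proteases had 0.06 and 0.11 over 12 genes, with Hspd1 at 0.01 and 0.28, and Lonp1, the matrix protease, at 432 and 71 reads at E15 (log2 2.30). At E18 Lonp1 had 83 and 63 reads (log2 0.15, with an interval that included 0). The genes that the deposited tables annotate with the unfolded protein response, the 10 left out, had medians of 0.05 over 64 genes at E15 and -0.06 over 61 at E18. Genes that share the promoter letters likewise gave no uniform value: the 4 of the 10 with either form of the element had a median of 0.27 at E18, and 21 other genes with them one of -0.03, with 10 above 0 and 11 below. At E15 the 4 had a median of 0.07 and 22 other genes one of 0.10, with 15 above 0 and 7 below.

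The genes whose profile over the 4 libraries lay nearest to the mean profile of the 10 were the ubiquitin ligase gene Pja1, Tomm20, Clec1a, Zfp322a and Ndufb3, by Euclidean distance of centred log2 values. Pja1 had 115 CPM in the knockout and 112 CPM in the wild-type library at E15, and 121 and 100 CPM at E18. With 4 libraries many genes come close by any measure: of 11606 others, 191 lay nearer to the mean profile than Pdia6, the nearest of the 10, and 5582 nearer than Sdf2l1, the farthest.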

How the data were processed

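RNA of brain endothelial cells was sequenced in 4 libraries. The authors deposited a table per stage with raw read counts per Ensembl gene, per the file headers, and with normalized values that are CPM, since each equals the count over a total that differs from the listed sum by at most 3182 reads. The authors' deposited tables also hold a yes or no mark of significance, whose basis none of the sources states. Tools named, per the submitters' processing notes and without roles, are TopHat2 2.0.12, HTSeq 0.6.0 and Bowtie2 2.2.3, with the build mm9. Of 20143 identifiers found in GENCODE M21 (GRCm38), 90.1% had identical start and end in the tables, so coordinates are read as GRCm38. Exon lengths are from M21, and promoter sequences from RefSeq on GRCm38.p6.

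Counts were scaled to library totals over all listed genes. Genes entered a comparison when either library reached 1 CPM and the pair held 50 reads or more. Comparisons of stages took the 16181 genes in both tables. Calls are folds of 2 or 1.5 on the log2(CPM + 1) scale. The pseudocount understates ratios of weak genes, so that Ddit3 is pulled towards 0 most. With 1 library per group, p-values come only from the additive fit with edgeR 4.0.16 (TMM, a gene filter of 1 CPM in 2 libraries or more, 1 residual degree of freedom), which counts a genotype effect particular to a stage as noise. DESeq2 1.42.0 was an alternative. In Python 3.11.15, scipy 1.17.1 gave the intervals. The genes and lists were chosen with earlier results of these data known. Wider lists name, per comparison, at most the 2 most abundant genes and the 3 with the largest ratio past 1.5-fold; for some of these the counts at the other stage are added. Alternatives were other scalings, pseudocounts, filters and centring by length.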

Additional observations from a re-analysis of the deposited data

Results flagged for a closer look

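Dnajb9 and Atf4 each had intervals on opposite sides of 0 in 2 groups under the same contrast, and neither difference was tested. Dnajb9, knockout over wild type, had a log2 ratio of -0.26 at E15 and 0.10 at E18, where it had 85.3 CPM in the knockout and 79.6 CPM in the wild-type library. Its interval at E18 (0.001 to 0.20) barely excluded 0, and the ratio fell to as little as 0.01 under the alternatives. Atf4, E18 over E15, had a log2 ratio of 0.087 in the knockout (256 CPM at E18 and 241 CPM at E15) and -0.21 in the wild type (290 and 337 CPM).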

How the results depend on the processing

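No paired analysis was possible because each group holds 1 library, and leaving out a library would leave no comparison. The signs of the 10 genes held under the other scalings, pseudocounts, filters and length centring, except Pdia4 at E15 (-0.00 when centred by length) and Hspa5, Hsp90b1 and Pdia6 across stages in the knockout, described above. Counts of all genes past a fold moved most. Knockout over wild type at E15, 868 genes lay past 2-fold and 2375 past 1.5-fold, against 238 and 1135 with a pseudocount of 5 CPM, 1416 and 4333 without a filter, and 64 and 213 among genes averaging 50 CPM or more, a limit added after seeing the data. At E18 the counts were 840 and 2387, against 124 and 1097 with 5 CPM, 1292 past 2-fold with a pseudocount of 0.1 CPM, 1443 and 4183 without a filter, 486 and 1561 with a filter of 5 CPM, and 15 and 147 at 50 CPM or more. E18 over E15 in the knockout gave 1904 and 4004, against 779 and 2633 with 5 CPM and 201 and 588 at 50 CPM or more. In the wild type it gave 1335 and 3309, against 429 and 1890, and 114 and 461. Median log2 ratios of lists across stages moved with the scaling. In the knockout, translocation and glycosylation (-0.13) moved to -0.014 with TMM and -0.0030 with DESeq2 factors. In the wild type, ER chaperones (0.14) moved to 0.26 and 0.25, ER-associated degradation (0.05) to 0.17 and 0.16, and annotated genes (0.03) to 0.15 and 0.14, while length centring gave 0.15 for both of the last lists. The additive test by edgeR called 3 genes for genotype and 180 for stage. It called 0 and 102 with library totals (672 genes below an unadjusted p of 0.05 for genotype), 0 and 92 without a filter (732 genes), and 29 and 997 with a filter of 5 CPM, while DESeq2 called 44 and 716. The cause was not tested. None of these settings called any of the 10 genes. With 203 to 334 reads, Ddit3 is the gene whose ratios depth limits most.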
